A study of Mus musculus with 32 samples.

Results

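Neuronal and ion channel genes were followed through the zygote, the early 2-cell and the late 2-cell stage of mouse embryos in which histone acetylation was disturbed. The members are the protein-coding genes whose symbol begins with Kcn, Gabr, Gria, Grik, Grin, Cacn or Scn followed by a digit, and 170 of the 55385 genes listed for each RNA library met this rule. They hold the pore-forming and auxiliary subunits of potassium, sodium and calcium channels and the subunits of the GABA-A and ionotropic glutamate receptors. Grina is a member by its symbol only, because it encodes a membrane protein that is no receptor subunit. All embryos were wild type and came from in vitro fertilization of B6D2F1/J oocytes with B6D2F1/J sperm from mice of 6 to 8 weeks of age, and all were cultured in KSOM. In the A-485 experiment the embryos were given 10 µM A-485, or DMSO, between 4 and 20 hours post insemination (hpi). A-485 blocks the acetyltransferases CBP and p300. The embryos were sampled at all 3 stages. Sampling times are not given here, and embryos taken before the 2-cell stage may have had only part of this window. In the TSA experiment, late 2-cell embryos received 50 nM TSA, an inhibitor of histone deacetylases, from 8 to 28 hpi, or DMSO. The titles of the libraries name no experiment, so the assignment of the DMSO groups to experiments is inferred. The labels name the windows 0 to 20 and 8 to 28 hpi for TSA, and the second is the one the study describes for late 2-cell embryos. Each of the 8 groups had 2 total RNA libraries of whole embryos, so p-values measure the spread between libraries whose independence the labels do not state. Open chromatin was measured by ATAC-seq in embryos of the A-485 experiment at the late 1-cell and the early 2-cell stage, with 1 peak list per group over both replicates.

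Ion channels and ligand-gated receptors set the membrane potential and the excitability of neurons, muscle and gland cells, and most of their genes are kept silent outside the tissue that uses them. In neuronal genes this silencing is attributed in part to the repressor REST, which recruits histone deacetylases and demethylases. The mammalian egg is itself an electrically active cell, since it uses calcium channels and calcium oscillations at fertilization, and it carries maternal RNA for a small set of channels. The embryonic genome is activated mainly at the late 2-cell stage, while maternal RNA is degraded.

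The promoters of 5 members are shown because they bear on the results that follow. Kcnj2 and Kcnj10 were raised by TSA from under 1 FPKM to among the highest levels of all members, and Kcna4 from no count. Kcnk5 rose at the 2-cell stage in controls, and Kcnk18 was among the abundant members of the zygote. Each sequence is the reference of RefSeq (GRCm38.p6) from 250 bases before to 50 bases after the start, 5′ to 3′ on the strand of the gene, and matches of the GC box (GGGCGG on either strand), a site bound by factors of the Sp family, are in capitals. The positions are chr11:111065914-111066213 (+) for Kcnj2, chr1:172340960-172341259 (+) for Kcnj10, chr2:107290339-107290638 (+) for Kcna4, chr14:20181733-20182032 (-) for Kcnk5 and chr19:59219398-59219697 (+) for Kcnk18.
Kcnj2: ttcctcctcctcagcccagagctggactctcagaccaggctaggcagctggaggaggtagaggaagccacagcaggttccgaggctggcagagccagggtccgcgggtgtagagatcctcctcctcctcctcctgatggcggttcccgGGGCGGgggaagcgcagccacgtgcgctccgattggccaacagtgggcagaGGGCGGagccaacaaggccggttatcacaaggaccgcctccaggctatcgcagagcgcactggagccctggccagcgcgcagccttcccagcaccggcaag
Kcnj10: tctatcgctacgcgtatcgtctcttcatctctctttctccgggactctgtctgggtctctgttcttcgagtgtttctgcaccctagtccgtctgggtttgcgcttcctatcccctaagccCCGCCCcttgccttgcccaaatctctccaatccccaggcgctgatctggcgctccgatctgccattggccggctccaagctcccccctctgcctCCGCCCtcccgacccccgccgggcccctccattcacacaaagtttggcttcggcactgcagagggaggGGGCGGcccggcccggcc
Kcna4: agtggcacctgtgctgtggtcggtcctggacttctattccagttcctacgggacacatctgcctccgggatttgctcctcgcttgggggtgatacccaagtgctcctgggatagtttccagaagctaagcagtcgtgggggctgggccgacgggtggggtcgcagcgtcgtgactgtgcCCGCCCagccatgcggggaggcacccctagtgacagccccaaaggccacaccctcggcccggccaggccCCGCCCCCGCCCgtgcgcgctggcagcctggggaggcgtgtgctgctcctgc
Kcnk5: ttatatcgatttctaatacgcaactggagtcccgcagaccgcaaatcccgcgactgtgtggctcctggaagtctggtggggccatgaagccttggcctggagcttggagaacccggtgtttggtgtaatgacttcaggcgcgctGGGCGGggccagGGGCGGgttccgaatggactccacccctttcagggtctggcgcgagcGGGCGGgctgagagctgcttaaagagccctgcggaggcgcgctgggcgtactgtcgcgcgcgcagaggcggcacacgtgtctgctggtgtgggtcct
Kcnk18: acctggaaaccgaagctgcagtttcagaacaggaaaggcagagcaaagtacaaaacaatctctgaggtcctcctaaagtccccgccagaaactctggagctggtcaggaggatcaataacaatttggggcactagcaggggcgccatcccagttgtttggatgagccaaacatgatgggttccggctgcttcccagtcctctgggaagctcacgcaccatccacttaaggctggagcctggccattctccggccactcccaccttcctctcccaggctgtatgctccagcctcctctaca
The GC box was found 2 times in the promoter of Kcnj2 and 3 times each in those of Kcnj10, Kcna4 and Kcnk5, and these letters were not in the promoter of Kcnk18.

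The authors mapped the RNA reads to GRCm38 and gave, for each gene and library, an expected count and the FPKM, which is the level corrected for transcript length and for the number of fragments in the library and is the scale of every level below. Libraries held between 13206163 and 32585987 expected counts, the fewest in A-485-treated late 2-cell embryos. Mitochondrially encoded protein genes gave 5.35 and 5.43% of counts at late 2-cell with A-485 against 2.35 and 2.45% in their controls, and their 20 most abundant genes took 32.1 and 32.6% of counts against 19.0 and 20.1%. Of 15 early embryo markers, 15 had a mean of at least 1 FPKM in the 4 late 2-cell groups, with a sum between 1867 and 2461 FPKM per library. Of 15 cumulus cell markers, between 1 and 4 reached 1 FPKM in any group, with sums between 3.42 and 14.5 FPKM. The counts of a library reflect its depth, so the amount of RNA per embryo cannot be read from them.

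Most members were silent or nearly so. In DMSO-treated embryos 31 members had a mean of at least 1 FPKM in zygotes and 33 in early 2-cell embryos, and late 2-cell embryos had 31 in the A-485 and 26 in the TSA experiment, which is between 15.3 and 19.4% of the 170. Of the 21727 other protein-coding genes, between 45.7 and 48.9% reached this level in the same groups. The median member stood between 0.035 and 0.0975 FPKM in the DMSO groups, and 76 members in zygotes and 65 at early 2-cell had no more than 3 counts in either library. With A-485 at late 2-cell 47 members (27.6%) reached 1 FPKM, and with TSA 60 members (35.3%), while the share of other protein-coding genes was 54.1 and 57.5%.

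**Figure D1:**
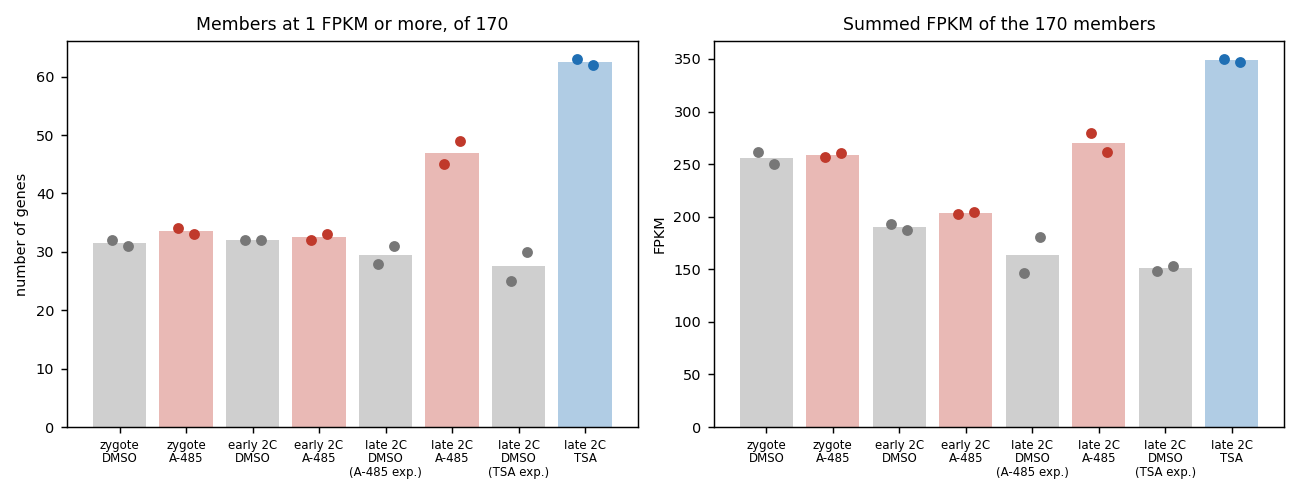
Members at 1 FPKM or more (left, number of genes of 170) and the summed FPKM of all members (right) in each of the 8 groups; each point is a library and each bar the mean of 2. At late 2-cell 45 and 49 members reached this level with A-485 and 63 and 62 with TSA, more than in any DMSO-treated library (25 to 32).

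In zygotes the RNA of the members was concentrated in few genes. The 5 most abundant members held 45.0% of the summed FPKM of all members in DMSO-treated zygotes and the 10 most abundant held 66.0%. They were Kcnma1, the pore of the large-conductance calcium-activated potassium channel, at 28.0 and 29.0 FPKM, Kcnh1, a voltage-gated potassium channel of the ether-à-go-go family, at 25.0 and 23.7 FPKM, Grina at 27.1 and 23.2 FPKM, Kcnn2, a small-conductance calcium-activated channel, at 22.77 and 21.02 FPKM, and Kcnk18, a tandem-pore background potassium channel, at 16.2 and 14.2 FPKM. Over the 4 DMSO groups the same genes ranked with Cacna1h, a low-voltage-activated calcium channel, Gabra3, a GABA-A receptor subunit, Cacnb3, a calcium channel beta subunit, Kcnk6 and Kcnk5 as the 10 highest, with means between 7.53 FPKM for Cacnb3 and 17.6 FPKM for Kcnma1. Gabra6, Kcna10, Kcnj3 and Scn7a were listed at 0 FPKM in all 16 libraries.

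To ask which members change without any inhibitor, DMSO-treated late 2-cell embryos of the A-485 experiment were compared with DMSO-treated zygotes. Expected counts were rounded and tested with edgeR, and a gene was called when its adjusted p over all tested genes was below 0.05, its fold change at least 2 and its mean FPKM at least 1 in either group. Of the 101 members tested, 6 rose and 16 fell, while 19.7% of the 20253 genes tested were called up and 19.7% called down. Scaled to mitochondrially encoded genes instead, a change that shifted the median expressed gene by -1.30 log2 units, 5 members were called up and 31 down, beside 11.9 and 38.3% of all tested genes. The members that rose belong to several channel types. Kcnk6, a tandem-pore potassium channel (chr7:29221926-29232515), had no count in either zygote library and stood at 15.2 and 13.0 FPKM at late 2-cell, at least 563-fold higher. Kcnk5, an acid-sensitive tandem-pore channel, rose from 0.46 and 0.40 to 12.5 and 9.90 FPKM (log2 fold change 4.77 ± 0.26 SE, edgeR adjusted p = 3.93e-08). In both genes the late 2-cell libraries lay far above the zygote libraries.

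Grin2d, an NMDA receptor subunit, rose from 0.01 and 0.03 to 1.67 and 1.55 FPKM (6.15 ± 0.54, edgeR adjusted p = 1.92e-06). Cacnb1, a calcium channel beta subunit, had 2 counts in all in zygotes, and its ratio at late 2-cell was 129 with a 95% counting interval from 35.2 to 1074. Kcna1, a voltage-gated potassium channel of axons, rose as well and stood at 0.29 and 0.28 FPKM in zygotes and at 1.15 and 1.49 FPKM at late 2-cell. Among the members that fell, Gabrq, the theta subunit of GABA-A receptors, had the largest change, from 4.21 and 3.03 to 0.83 and 0.08 FPKM (-2.92 ± 0.63, edgeR adjusted p = 0.00206), followed by Kcnk1, Kcnh2, Gabra5 and Kcnk13 with log2 fold changes between -2.77 and -2.38. With DESeq2 the change of Gabrq was -2.88 with an adjusted p of 0.0527, and without the first DMSO-treated zygote library that of Kcnk1 was -2.22 with an adjusted p of 0.129.

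DMSO-treated late 2-cell embryos of the TSA experiment were also set against DMSO-treated early 2-cell embryos, which are counted to the A-485 experiment. Stage and experiment cannot be told apart in this comparison. Of the 104 members tested, 3 were called up and 11 called down, beside 19.3 and 10.3% of the 21141 genes tested. Those that rose included Kcnk6 (from 0.54 and 0.28 to 20.6 and 21.9 FPKM, 5.74 ± 0.23, edgeR adjusted p = 1.21e-08) and Grin2d (2.09 ± 0.42, edgeR adjusted p = 0.00162). Kcnk5 and Kcna1 had already reached 6.13 and 7.33 FPKM and 3.31 and 2.75 FPKM at early 2-cell. Kcna1 then fell to 0.79 and 1.33 FPKM (-1.56 ± 0.29, edgeR adjusted p = 0.00106), and Gabra5, Kcnh2, Kcnh3 and Kcnmb3 fell by 2.20, 1.96, 1.46 and 1.38 on the log2 scale, the last a call lost without the second control library of the TSA experiment (adjusted p = 0.0549). No member was called between the DMSO-treated late 2-cell embryos of both experiments with edgeR or with DESeq2, where 5 of 105 had an unadjusted p below 0.05 and 1.19 and 0.136% of all tested genes were called up and down.

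With A-485 at the zygote stage, none of the 86 members tested was called with edgeR or DESeq2, 9 had an unadjusted p below 0.05, and 0.00548 and 0.0657% of the 18258 genes tested were called up and down. Kcnma1, the most abundant member, stood at 36.4 and 29.5 FPKM with A-485 against 28.0 and 29.0 FPKM with DMSO. At early 2-cell, 1 member rose and 2 fell of 102 tested, beside 0.402 and 7.90% of the 20872 genes tested. Kcnk5 fell from 6.13 and 7.33 to 0.28 and 0.90 FPKM (-3.48 ± 0.39, edgeR adjusted p = 5.3e-05). Cacnb1 fell from 3.07 and 1.96 to 0.52 and 1.02 FPKM (-1.75 ± 0.43, edgeR adjusted p = 0.0193), a call that was lost without the first DMSO-treated library (adjusted p = 0.0501) or the first A-485-treated library (adjusted p = 0.0835). Without the first A-485-treated library the numbers of members called up and down changed, and the shares of all genes called in that fit are not given here.

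Grin2a, a subunit of the NMDA receptor (chr16:9567898-9995560), was the member that rose at early 2-cell. It stood at 1.73 and 1.64 FPKM with A-485 against 0.08 and 0.33 FPKM with DMSO (2.60 ± 0.60, edgeR adjusted p = 0.0131). At late 2-cell it stood at 6.34 and 6.94 FPKM against 0.04 and 0.01 FPKM in the controls, which held 3 counts and 1 count (6.71 ± 0.64, edgeR adjusted p = 5.3e-06). The groups did not overlap at either stage.

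At late 2-cell, after treatment with A-485 until 20 hpi, 15 members rose and 4 fell of 122 tested. Over all 22822 genes tested 10.5% were called up and 16.8% called down, so that 12.3% of the tested members rose, near the share of all genes, and 3.28% fell. Scaled instead to mitochondrially encoded genes, a change that shifted the median expressed gene by -0.977 log2 units, 5 members were called up and 9 down, beside 5.16 and 30.1% of all tested genes. Under it Kcnj13, Kcne3, Kcnrg, Kcnk1, Gabre, Kcng4 and Kcnj2 kept their direction and lost their call (edgeR adjusted p between 0.0576 and 0.123). The part of the higher mitochondrial share in these counts was not tested.

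The members that fell included Kcnk6, Kcnk5 and Grin2d. The comparison with zygotes above shares their DMSO-treated late 2-cell libraries, so the values of both are only set side by side. Kcnk6 stood at 0.10 and 0.16 FPKM with A-485 against 15.2 and 13.0 FPKM with DMSO (-6.96 ± 0.33, edgeR adjusted p = 1.97e-08), and its groups were the most widely separated. Kcnk5 stood at 3.68 and 3.25 FPKM against 12.5 and 9.90 FPKM (-1.90 ± 0.24, edgeR adjusted p = 6.71e-05). Grin2d stood at 0.25 and 0.03 FPKM against 1.67 and 1.55 FPKM (-3.78 ± 0.73, edgeR adjusted p = 0.00148). Kcna1 rose, to 15.4 and 12.9 FPKM with A-485 from 1.15 and 1.49 FPKM with DMSO (3.25 ± 0.24, edgeR adjusted p = 5.45e-07), and Cacnb1 was 3.27 and 3.64 FPKM against 1.62 and 1.30 FPKM and was not called.

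Among potassium channels, the pore subunits of the voltage-gated class had 5 members up of 29 tested. Kcna6, which like Kcna1 forms low-threshold channels, rose from 0.14 and 0.11 to 3.29 and 1.18 FPKM (4.63 ± 0.65, edgeR adjusted p = 0.000136). Kcng4, Kcnv2 and Kcnd3 rose as well, of which the first and second are modifier subunits that form no channel of their own. Of 15 auxiliary subunits tested 4 rose. Kcne1 and Kcne3, single-span partners of voltage-gated channels, reached 1.59 and 3.84 FPKM and 3.45 and 3.03 FPKM, from 0.13 and 0.04 FPKM and from 0.00 and 0.60 FPKM (4.13 ± 0.78 and 3.37 ± 1.14). Kcnmb3 and Kcnrg also rose, by 2.01 and 2.94 on the log2 scale.

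Of the inward rectifiers, which hold the resting potential of muscle and glia, Kcnj2 rose from 0.50 and 0.55 to 2.52 and 2.41 FPKM (2.03 ± 0.38, edgeR adjusted p = 0.0011). Kcnj13 had 2 counts in all in the controls and 20 and 16 counts with A-485, a ratio of 23.6 with a 95% counting interval from 6.09 to 203. Its call was lost with the replicate number as a block (edgeR adjusted p = 0.0789) and without the second control library, the first or the second A-485-treated library (edgeR adjusted p between 0.107 and 0.211). Kcnk1 rose from 0.35 and 0.28 to 3.26 and 2.04 FPKM (2.83 ± 0.82, edgeR adjusted p = 0.0176), a call lost without the second control library (adjusted p = 0.0543) or the first A-485-treated library (adjusted p = 0.153). The call of Kcne3 was lost without the first control library (adjusted p = 0.0618) or the first A-485-treated library (adjusted p = 0.0617). In each of these the direction was kept.

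Both GABA-A receptor subunits that rose, of 12 tested, are encoded on the X chromosome, where Gabre lies at chrX:72255999-72274803 and Gabrq at chrX:72825178-72842602. Gabrq stood at 5.36 and 3.36 FPKM with A-485 against 0.83 and 0.08 FPKM (2.88 ± 0.70, edgeR adjusted p = 0.00659). Gabre stood at 2.12 and 2.43 FPKM against 0.32 and 0.92 FPKM (2.34 ± 0.51, edgeR adjusted p = 0.00341). No sodium channel, calcium channel, AMPA or kainate receptor subunit was called with edgeR. Of the abundant maternal members, Kcnma1 was 30.8 and 18.1 FPKM with A-485 against 9.74 and 13.4 FPKM, and Kcnn2 was 5.57 and 8.32 FPKM against 3.08 and 3.86 FPKM, and neither was called.

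**Figure D2:**
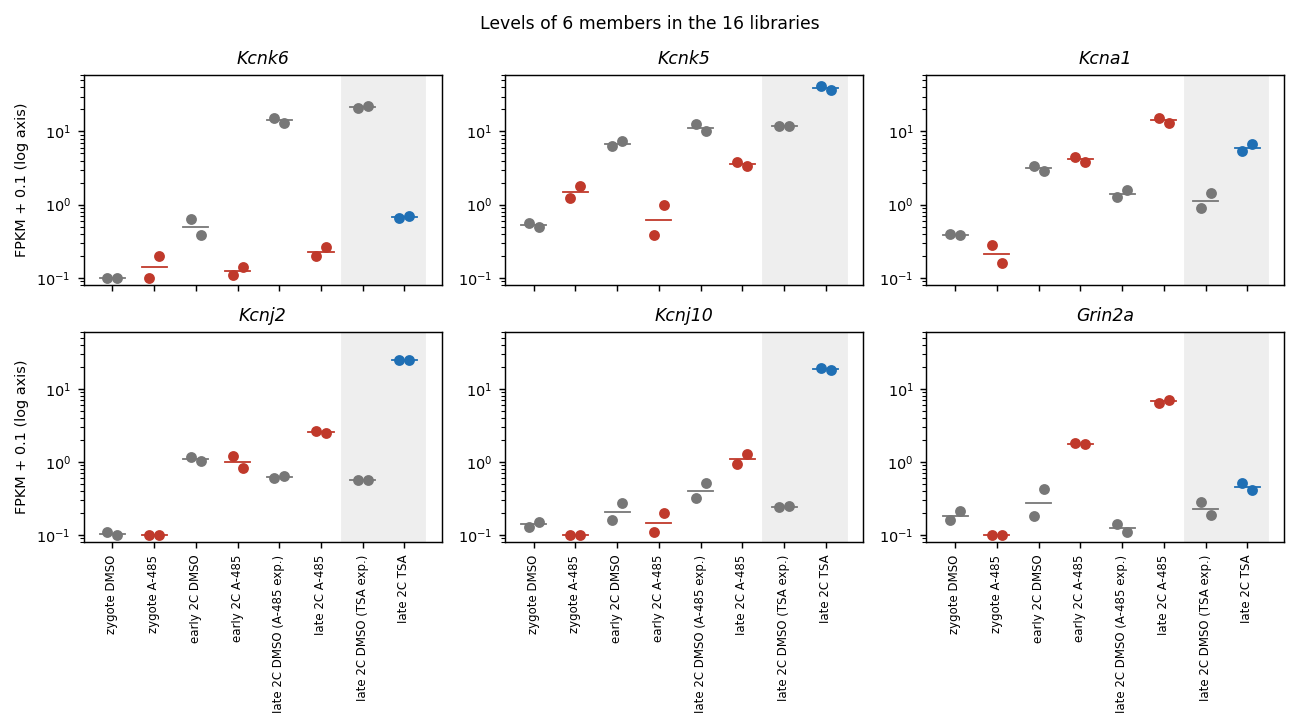
Level of 6 members (FPKM + 0.1, log axis) in the 16 libraries; points are libraries, short lines the geometric mean of a group, gray DMSO, red A-485 and blue TSA, with the TSA experiment shaded. At late 2-cell Kcnk6 and Kcnk5 were higher than in zygotes with DMSO and lower with A-485 than with DMSO, Kcnk5 was higher and Kcnk6 lower with TSA, Kcna1 was higher with either inhibitor, Kcnj2 and Kcnj10 reached their highest level with TSA, and Grin2a reached its highest level with A-485.

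With TSA at late 2-cell, 31 members rose and 2 fell of 142 tested, where 13.8 and 13.9% of the 23429 genes tested were called up and down. That is 21.8% of the tested members rose and 1.41% fell. Of the 142 tested, 33 had no more than 3 counts in one of the groups, and a silent member could enter the test only through the group in which it was counted. The mitochondrial share of counts was 3.66 and 3.72% with TSA against 2.71 and 2.39% in the controls, and the 20 most abundant genes took 25.73 and 26.97% against 20.8 and 20.4%, whose part in the calls was not tested. Scaling to total counts moved the median of expressed genes by 0.355 log2 units and gave 35 members up. The share of all genes called up under that scaling is not given here, so its count of members is a description only. Without the requirement of 1 FPKM, 55 members were called up, beside 18.4% of all tested genes.

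Most members tested were potassium channels (33 voltage-gated and 8 calcium- or sodium-activated pore subunits, 11 inward rectifiers, 11 tandem-pore channels and 16 auxiliary subunits). They gave 21 of the 31 calls up. Among them were inward rectifiers that went from under 1 FPKM to well above 10 FPKM. Kcnj2 (chr11:111066164-111076821) stood at 24.9 FPKM in both TSA-treated libraries against 0.46 FPKM in both control libraries (5.40 ± 0.13, edgeR adjusted p = 1.9e-09). Kcnj10, the inward rectifier of glia (chr1:172341210-172374085), stood at 19.3 and 18.2 FPKM against 0.14 and 0.15 FPKM (6.61 ± 0.16, edgeR adjusted p = 1.93e-09). Together with Kcnj13, which went from 0 counts and 1 count to 32 and 64 counts, they made 3 of 11 inward rectifiers tested, and the summed level of the 15 inward rectifiers went from 0.94 to 48.6 FPKM.

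Of the 33 pore subunits of voltage-gated potassium channels tested, 9 rose and none fell. Kcna4, a rapidly inactivating channel, had no count in either control library and 93 and 119 counts with TSA (1.07 and 1.31 FPKM), at least 36.9-fold higher. Kcna6 had 0 and 3 counts in the controls and 135 and 90 counts with TSA, a ratio of 78.5 with a 95% counting interval from 26.5 to 384. Kcnh4 rose from 0.03 and 0.10 to 2.14 and 1.56 FPKM (4.44 ± 0.53, edgeR adjusted p = 5.15e-05). Others were Kcna1, Kcng1, Kcnh2 and Kcns3, with log2 fold changes between 1.34 and 3.05.

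Kcnn3, a small-conductance calcium-activated channel, rose from 0.03 and 0.01 to 3.08 and 4.50 FPKM (6.17 ± 0.53, edgeR adjusted p = 4e-06). Among tandem-pore channels Kcnk2 rose, Kcnk5 rose from 11.8 and 11.7 to 41.3 and 36.5 FPKM (1.37 ± 0.10, edgeR adjusted p = 1.24e-06), and Kcnk6 fell from 20.6 and 21.9 to 0.56 and 0.59 FPKM (-5.57 ± 0.15, edgeR adjusted p = 2.63e-09). Kcnk5 was then the most abundant member of all, with 11.2% of the summed FPKM, whereas Kcnk6 had been the most abundant in the controls with 14.1%. Auxiliary subunits made 6 of the calls (Kcnab2, Kcnab3, Kcne1, Kcne3, Kcnip2 and Kcnmb4, of 16 tested), with log2 fold changes between 1.65 and 3.52.

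Of the receptors, Gabrq stood at 11.5 and 16.4 FPKM with TSA against 0.51 and 0.68 FPKM (4.05 ± 0.22, edgeR adjusted p = 1.48e-07), and Gabre at 6.78 and 6.88 FPKM against 0.45 and 0.49 FPKM (3.18 ± 0.30, edgeR adjusted p = 8.41e-06). These are the same X-linked subunits that rose with A-485, and no other of the 11 GABA-A receptor subunits tested was called. Grin2c, an NMDA receptor subunit of the cerebellum, had no count in either control library and 89 and 77 counts with TSA, at least 29.0-fold higher. Grin2d fell from 1.03 and 1.24 to 0.50 and 0.54 FPKM (-1.48 ± 0.31, edgeR adjusted p = 0.00254), a call lost in a fit over all 16 libraries (adjusted p = 0.106). Grin2a stood at 0.41 and 0.31 FPKM against 0.18 and 0.09 FPKM and did not reach 1 FPKM. No AMPA or kainate receptor subunit was called with edgeR, of 2 and 5 tested.

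Calcium channels, grouped by symbol, gave 6 calls, all up, of 10 pore, 4 alpha-2-delta, 4 beta and 6 gamma subunits tested. Cacna1g, a low-voltage-activated pore subunit (chr11:94408391-94474198), rose from 0.00 and 0.06 to 3.51 and 3.95 FPKM (6.65 ± 0.58, edgeR adjusted p = 4.6e-06). The presynaptic pore subunits Cacna1a and Cacna1b rose to levels between 1.12 and 1.49 FPKM. Of the genes classed by symbol as accessory subunits, Cacna2d2 rose from 0.12 and 0.05 to 1.68 and 2.19 FPKM (4.18 ± 0.50, edgeR adjusted p = 5.05e-05). Cacnb1 rose from 1.67 and 1.50 to 5.36 and 5.45 FPKM. Cacng5 had no count in the controls and 119 and 62 counts with TSA, at least 31.7-fold higher. None of the 9 sodium channel pore subunits tested was called with edgeR. Without the first TSA-treated library the mean level of Cacng5 and of Grin2c fell below 1 FPKM.

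**Figure D3:**
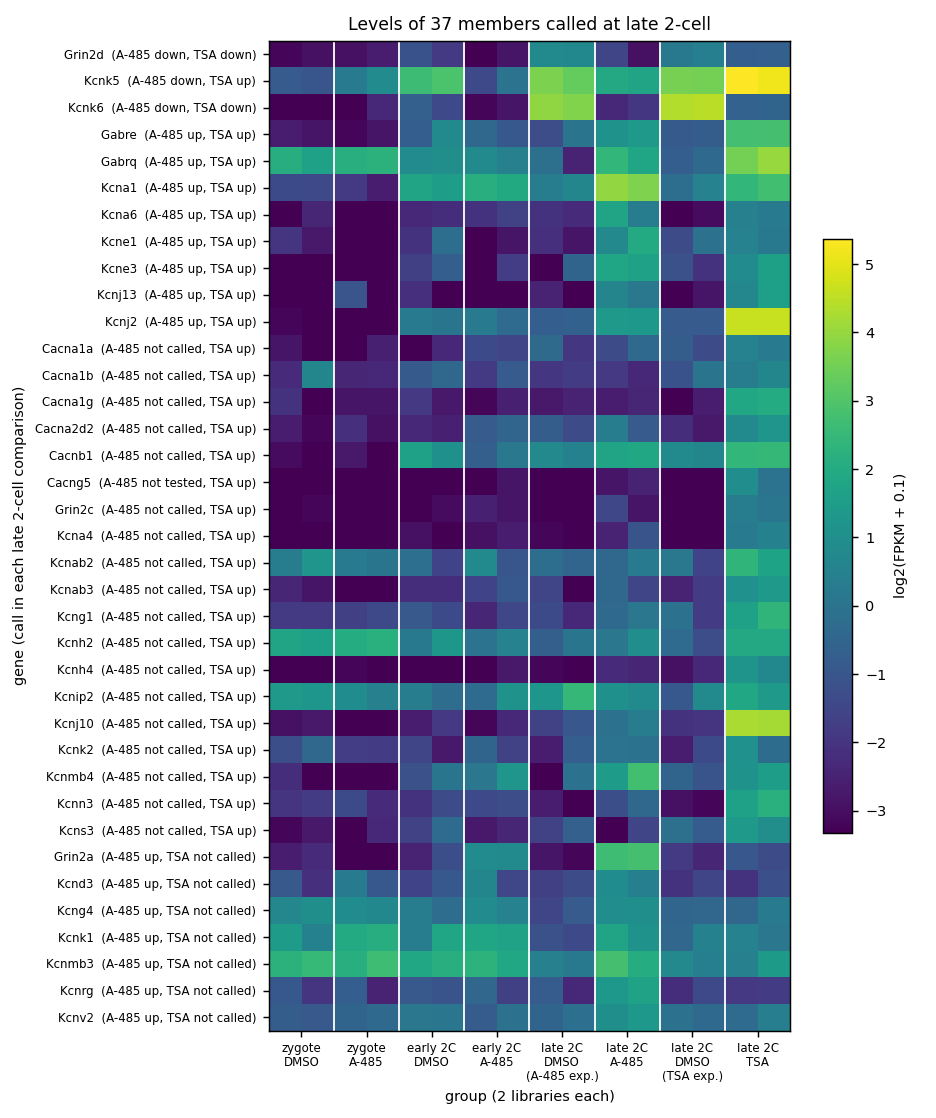
Levels, as log2(FPKM + 0.1), of 37 members called in either late 2-cell comparison (rows, with both calls) in the 16 libraries (columns, 2 per group). The 3 members shown that were called down in at least 1 comparison are at the top, followed by the 8 called up in both, the members up with TSA and those up with A-485.

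Several named members share exons with a gene on the other strand, which is Gigyf2 for Kcnj13, Gm26673 for Kcna6, Gm25837 for Grin2c, Gm45441 for Grin2d, Gm11629 for Cacnb1, Gm17141 for Cacna2d2, Gm34821 for Kcne3 and Gm45875 for Kcnk1. The library kit keeps the strand, but whether reads were counted by strand is not given in the sources used here, so the reads of such pairs may not be separated. Kcnk5, Kcnk6, Kcnj2, Kcnj10, Kcna4, Cacna1g and Grin2a share no exon with another annotated gene.

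The effects of the inhibitors at late 2-cell, each against its own DMSO-treated libraries, were compared in 1 fit of 8 libraries. Of the 151 members tested, the TSA effect was above the A-485 effect for 12 and below it for 1, beside 10.8 and 2.70% of the 26554 genes tested. The difference was 5.20 ± 0.41 log2 units for Kcnj10 (edgeR adjusted p = 5.05e-08), 6.21 ± 1.06 for Cacna1g (adjusted p = 0.000366) and 3.38 ± 0.23 for Kcnk5 (adjusted p = 1.22e-08). Kcnk5 moved in opposite directions, down with A-485 and up with TSA. Grin2a was the member with the larger A-485 effect (-4.67 ± 1.16, adjusted p = 0.00845), a call lost without the first control library of the TSA experiment (-2.57, adjusted p = 0.514).

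The 8 members called up in both comparisons, Gabre, Gabrq, Kcna1, Kcna6, Kcne1, Kcne3, Kcnj13 and Kcnj2, are 25.8% of those up with TSA and 53.3% of those up with A-485. Of all other genes called up, 772 were shared, which is 24.1% of those up with TSA and 32.3% of those up with A-485. Kcnk6 and Grin2d were called down in both, which is 100% of the members down with TSA and 50.0% of those down with A-485. Of all other genes called down, 2399 were shared, which is 73.9% of those down with TSA and 62.8% of those down with A-485. The control libraries of these comparisons are different ones. For Kcnj2 the rise with TSA exceeded that with A-485 by 3.48 ± 0.26 log2 units (adjusted p = 3.79e-08).

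**Figure D4:**
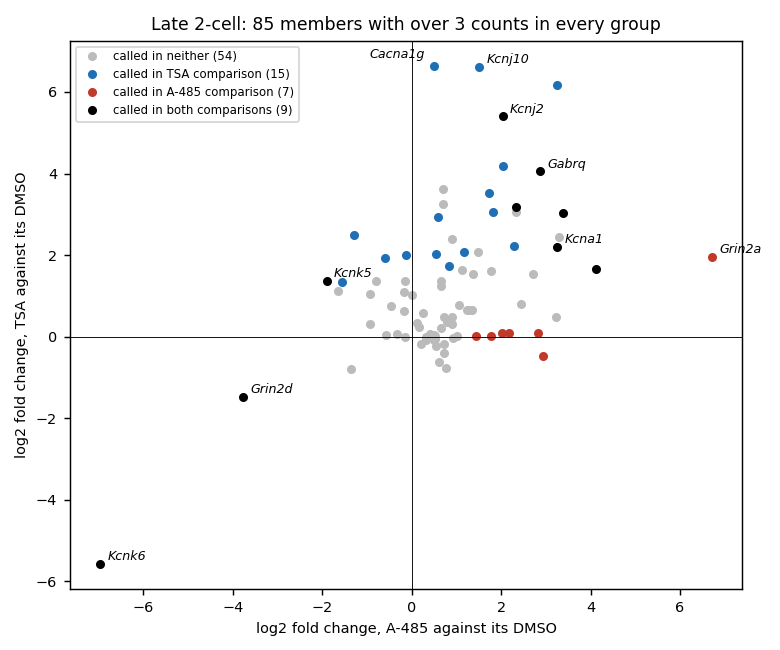
Log2 fold change with A-485 (horizontal) and with TSA (vertical) at late 2-cell for 85 members with more than 3 counts in each of the 4 groups; color gives the comparison in which a member was called. Kcnk5 lies at the upper left, Kcnk6 and Grin2d at the lower left, and Kcnj2, Gabrq and Kcna1 at the upper right.

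Because the members are mostly silent, their appearance was set beside that of other silent genes. Of the 144 members under 1 FPKM in the controls of the TSA experiment, 37 (25.7%, 95% Wilson interval 19.2 to 33.4%) reached it with TSA, and of 11194 other protein-coding genes under 1 FPKM 2317 (20.7%) did. With A-485 at late 2-cell the shares were 22 of 139 members (15.8%, 10.7 to 22.8%) and 1898 of 11113 other genes (17.1%). The intervals of the members include the shares of the other genes in both cases, and they treat genes as separate draws and cover counting error only. At early 2-cell with A-485, 5 of 137 members (3.65%) crossed this level, against 3.69% of other genes. Between the controls of both late 2-cell experiments 0 of 139 members did, against 3.40% of other genes.

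Accessible promoters were rare among the members. A peak lay within 1 kb of an annotated start site of 13 members (7.6%, 95% Wilson interval 4.52 to 12.6%) in DMSO-treated late 1-cell embryos and of 12 (7.1%) with A-485, against 26.4 and 24.9% of other protein-coding genes. In early 2-cell embryos the number was 11 (6.5%, 3.65 to 11.2%) with DMSO and 39 (22.9%, 17.3 to 29.8%) with A-485, against 32.0 and 41.1% of other protein-coding genes. The whole lists held 27693 peaks with DMSO and 13712 with A-485 at early 2-cell. There is 1 pooled list per group, so these differences have no replicate check, and the depth behind the lists is unknown.

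The members with a promoter peak differed between the lists. Only 5 members, Cacna1a, Cacnb3, Gabre, Kcnab2 and Kcnk13, had one in both early 2-cell lists, which is 45.5% of those with DMSO and 12.8% of those with A-485, where other protein-coding genes shared 81.9 and 63.6%. Kcnk6 had a promoter peak with DMSO (fold enrichment 8.17) that was not in the list with A-485. Kcnma1 likewise had one with DMSO (12.8). Kcnk5, Kcnj2 and Kcnj10 had one at early 2-cell with A-485 (7.22, 7.61 and 4.60) and not with DMSO, and Kcnj2 had one in both late 1-cell lists. Of the 31 members called up with TSA at late 2-cell, 14 had a promoter peak in the early 2-cell A-485 list and 3 in the early 2-cell DMSO list. Of the other 139 members 25 and 8 had one, and of other protein-coding genes 41.1 and 32.0%. The shares of all genes called up with TSA are not given here, and a link between these peaks and the calls was not tested.

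**Figure D5:**
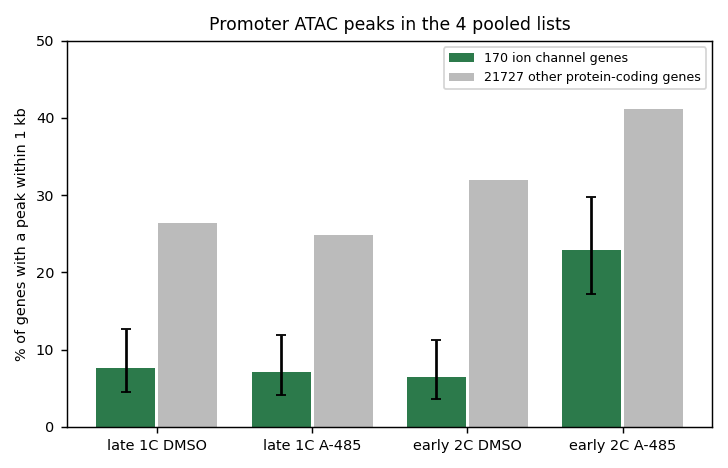
Share of genes (%) with an ATAC peak within 1 kb of a start site in the 4 pooled lists, for the 170 members (green, bars with 95% Wilson intervals) and the 21727 other protein-coding genes (gray). The members stood at 6.5 to 7.6% in the first 3 lists and at 22.9% in early 2-cell embryos with A-485.

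The study's list of 1917 Polycomb targets, genes with H3K27me3 at their promoter in the inner cell mass and no expression in preimplantation embryos, held 22 of the 170 members. None of these 22 was among the 31 called up with TSA or the 37 that reached 1 FPKM with it. Since the list was chosen for lack of expression in such embryos, this count is a description only. RefSeq promoters were found for 124 members by symbol. The ratio of observed to expected CpG had a median of 0.673 in 22 members called up with TSA, 0.517 in 102 other members and 0.415 over 27025 genes. The GC box was present in 19 of the 22, in 51 of the 102 and in 38.2% of all genes with a promoter sequence. The median GC content of these sets was 67.0, 59.7 and 53.3%, and its part in the GC box counts was not tested. Members at 1 FPKM or more in the controls of the TSA experiment had a median ratio of 0.829, with the GC box in 11 of 19. The TATA box (TATAAA, either strand) was present in 1 of the 22, in 9 of the 102 and in 15.7% of all.

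Related genes were followed in lists of other channel families, of pan-neuronal genes and of REST with its partners. Of 70 genes of other channel families tested with TSA, 16 rose and 3 fell. Of all genes tested, 13.8 and 13.9% were called up and down. Hcn4, a pacemaker channel, was listed at 0 in both control libraries and stood at 1.39 and 1.64 FPKM with TSA, and Scnn1g, a subunit of the epithelial sodium channel, went from 0.04 and 0.00 to 3.47 and 4.13 FPKM. With A-485 at late 2-cell 6 of 65 rose and 6 fell, beside 10.5 and 16.8% of all genes tested. Of 39 pan-neuronal genes tested with TSA, 11 rose and 1 fell, and with A-485 5 of 37 rose and 2 fell. Nefm, a neurofilament subunit, rose from 0.23 and 0.42 to 21.1 and 19.5 FPKM with TSA, whereas Stmn3, a microtubule regulator, fell from 32.4 and 29.0 to 0.55 and 0.98 FPKM with TSA and from 27.9 and 32.3 to 0.08 and 0.07 FPKM with A-485.

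Of REST and its partners, 16 in all, 1 rose and 7 fell in each comparison. Of all genes tested, 13.8 and 13.9% were called up and down with TSA, and 10.5 and 16.8% with A-485. The medians of the REST list were -0.472 with TSA and -0.969 with A-485, against 0.13 and 0.278 over all genes tested. Rest itself stood at 91.6 and 91.0 FPKM with TSA against 172 and 168 FPKM (-1.25 ± 0.05, edgeR adjusted p = 1.74e-08), and at 71.7 and 69.2 FPKM with A-485 against 180 and 173 FPKM (-1.51 ± 0.09, edgeR adjusted p = 1.05e-07). Its part in the levels of the members was not tested. Of the cumulus cell markers 4 rose (Foxl2, Grem1, Has2 and Vcan) and 1 fell (Amhr2) of 11 tested with A-485 at late 2-cell, and 1 rose (Inhbb) and 1 fell (Amhr2) of 13 with TSA. Their summed level was 7.99 and 7.04 FPKM with A-485 against 8.96 and 12.9 FPKM, and 8.02 and 8.20 FPKM with TSA against 12.6 and 14.5 FPKM. Amhr2, the receptor of anti-Müllerian hormone, held most of the sum in the controls, and without it, a choice made after seeing the data, the sums were 7.34 and 7.00 FPKM with A-485 against 2.01 and 2.23 FPKM, and 5.52 and 6.13 FPKM with TSA against 1.55 and 1.81 FPKM. The other markers were thus higher in sum with either inhibitor. Fshr was listed at 0 in both A-485-treated libraries and also in both of their DMSO-treated control libraries. The part of cumulus cells in the levels of the members was not tested. Of the sperm markers 0 of 7 and 1 of 9 tested rose.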

How the data were processed

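The RNA-seq libraries of 8 groups and the ATAC-seq peak lists of 4 groups were used, and the H3K27ac samples were not used here. For RNA-seq, the authors trimmed reads with Trimmomatic 0.39, mapped them to GRCm38 with STAR 2.7.8a and quantified genes with RSEM 1.3.1 (versions as in the submitters' processing notes). The authors deposited an expected count, which is not normalized, and the FPKM of each gene and library, between 13206163 and 32585987 counts per library. For ATAC-seq, the authors deposited optimal IDR peaks of the ENCODE pipeline over both replicates, with the fold enrichment as a ratio and -log10 q of each peak. No peak lay past a chromosome end of GRCm38.

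Members were found by symbol in GENCODE M21, to which 55144 of 55385 genes were matched by identifier. The members, families, marker lists and tests were chosen with earlier results of these data known. Rounded expected counts entered edgeR 4.0.16 under R 4.3.3 (quasi-likelihood test, TMM), genes with at least 10 counts over the libraries fitted, and Benjamini-Hochberg adjustment over all of them. Calls were made at an adjusted p below 0.05 with a change of 2-fold or more, for genes that reached a mean of 1 FPKM in one of the groups. A fold against a group without counts is a bound at 3 counts per library, and against 1 to 3 counts a ratio with an exact 95% interval, both for counting error only. Tested on simulated data for the TSA comparison (20694 genes), edgeR recovered 186 of 200 changed genes (93%), and 2 calls (1.06%) were false. The changed genes were drawn only from genes well counted in the controls, so these rates do not describe the many members with few counts. The 2 libraries of a group differed by more than counting noise.

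Some members that the rule would name are not reported here, though they are in the counts. The named genes are the called members with the largest fold changes in each comparison, in each direction up to 12 and 8 for the late 2-cell inhibitor comparisons, 8 for the other A-485 comparisons and 5 for stages and for the difference between inhibitors, the 10 with the highest mean FPKM over the DMSO groups, and in other lists the 3 with the largest change with TSA. Others named to complete a family, and Rest, were added after their values were seen. Alternatives were DESeq2 1.42.0, other scalings, no filter, 1 fit of all 16 libraries, blocking on the replicate number, dropping the FPKM requirement, leaving out each library, and other windows and thresholds for peaks. Promoter sequences were searched on both strands for the letters given and, as RE1, CRE, E-box and NRF1 motifs, for sites that were present in at most 8.75% of any set of members and are not described further. Peaks and shares were computed with Python 3.11.15 and scipy 1.17.1.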

Additional observations from a re-analysis of the deposited data

Results flagged for a closer look

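In 11 of the members described here the TSA effect and the A-485 effect at late 2-cell differed by the interaction test of edgeR, and this difference is what singled them out. Beyond those given above (Cacna1g 6.21, Kcnj10 5.20, Kcnj2 3.48, Kcnk5 3.38 and Grin2a -4.67 log2 units, TSA minus A-485), they were Gabrd (4.97), Kcnab2 (3.89), Cacna1b (2.63), Kcnh2 (2.47), Grin2d (2.41) and Kcnk6 (1.51). Grin2d and Kcnk6 fell with both inhibitors and fell further with A-485. Gabrd, the delta subunit of GABA-A receptors, held 21 and 18 counts in the controls and 17 and 66 counts with TSA, 6 and 31 counts in the controls and 2 and 0 counts with A-485, and was called in neither comparison. Groups of 2 libraries are too small for a search for libraries that stand apart.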

How the results depend on the processing

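Of 228 counts and shares recomputed under alternatives, 208 stayed within 1.5 times of the reported count or within the reported interval, and of 662 fold changes of named members none changed sign and 32 lost their call. Scaling to the mitochondrially encoded genes gave 5 members up and 9 down with A-485 at late 2-cell, 31 down from zygote to late 2-cell and 21 above in the difference between inhibitors (19.7% of all genes tested). Without the FPKM requirement, 55 members rose with TSA, 4 fell with A-485 at early 2-cell, and 15 and 7 rose at late 2-cell against zygote and early 2-cell, beside 18.4, 8.43, 23.7 and 21.3% of all genes tested. In 1 fit of all 16 libraries 1 member fell with TSA, and 4 lay below 0 in the difference between inhibitors, as 3 did with DESeq2; the cause was not tested. Leaving out 1 library at a time, which left 1 library in a group, changed the number of members called in several comparisons. The difference between inhibitors was among them, and the shares of all genes called in these fits are not given here. The call of Gabrd in that difference was lost with DESeq2 (4.97, adjusted p = 0.0518), in the fit of all 16 libraries (adjusted p = 0.0843) and without 1 of 5 libraries in turn (edgeR adjusted p up to 0.282).

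With the replicate number as a block, 32 members rose with TSA and 16 with A-485 at late 2-cell, and the difference between inhibitors had 15 above 0. The shares of all genes called with this block are not given here. Apart from Kcnj13 with A-485 and Gabrd (adjusted p = 0.0694), no named member lost its call. Libraries with the same number in both groups correlated between -0.037 and 0.113 in their deviations, so the numbers were not taken to pair the libraries. In early 2-cell embryos with DMSO, 12.9% of members had a peak within 2.5 kb of a start site and 3.5% a peak over one. At a mean of 0.5 FPKM or more, 45 members were found in the controls of the TSA experiment. A member at 0 counts is undetected at this depth rather than absent.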
